A study of Mus musculus with 8 samples.

Results

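The calcium genes of skeletal muscle described here are 10 gene rows of a table of 52636 taken by gene symbol. They fall into 3 roles, namely release of calcium from the sarcoplasmic reticulum (Ryr1, Trdn and Jph1), storage inside it (Casq1, Casq2 and Srl), and reuptake with buffering in the cytoplasm (Atp2a1, Atp2a2, Sln and Pvalb). RNA sequencing compared 4 control and 4 exercise libraries of satellite cells (SCs), the stem cells that lie against the muscle fibre, sorted from the tibialis anterior muscle of male C57B/6J mice that were 10 weeks old at the start. Exercise mice ran on a treadmill for 4 weeks, 4 days per week, 30 min per day at 12 m per min, and control mice were not trained. No transgene or deletion was involved. About 800 sorted cells entered each library, and the gate took CD34+ and α7-integrin+ cells that lacked CD45, CD11b, CD31 and Sca1. The study counts mice as the replicates of these data, but its labels do not tie a library to an animal, so the p-values measure the spread between these samples, part of which may be technical.

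In a muscle fibre, an action potential runs down the transverse tubule, where the voltage sensor opens the ryanodine receptor in the facing membrane of the sarcoplasmic reticulum. Calcium bound to calsequestrin inside the store then floods the cytoplasm and starts contraction. The SERCA pumps return it to the store, and in fast fibres parvalbumin binds it on the way, which speeds relaxation. Most of these proteins are made chiefly in the differentiated fibre, while SERCA2 is also the pump of many other cells.

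The libraries differed in depth in the same direction as the groups. Control libraries held 2339966 to 3013354 reads on genes and exercise libraries 1011737 to 1200221, with reads on 5169 to 7307 and 2348 to 3289 genes. Values are FPKM, the reads of a gene divided by its length and by a library size, and 1 read per kilobase was worth 0.251 to 0.436 FPKM in control libraries but 0.598, 0.627, 0.902 and 3.47 FPKM in exercise 1 to 4. A low exercise value thus rests on few reads, and depth and group cannot be told apart. The FPKM of all genes summed to 339848 to 433216 in control libraries. They summed to 331669, 339756, 637095 and 2.49e+06 in exercise 1 to 4, so FPKM of exercise 4 are not on the scale of the other libraries. Exercise 1 and 2 were nearly alike, and the chi-square between their reads, divided by its degrees of freedom, was 3.86, against 82.6 to 721 in the other pairs of libraries. For 7 of the 8 members with reads, the share of reads in control 4 lay between those in control 1 and control 3, as it did for 76% of all genes with reads. Exercise 3 lay between exercise 1 and 4 for 5 of 6 members and for 82.4% of all genes.

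The satellite cell label was checked against 14 markers, of which 10 had reads. Pax7, the transcription factor that defines SCs, and Itga7, the α7-integrin used in the sort, had 0 reads in every library, as did Cdh15 and Calcr. Cd34, the other marker the gate selected for, had 2, 14, 42 and 37 reads in control 1 to 4 and 92, 112, 25 and 4 reads in exercise 1 to 4. The summed level of the list was 34.3 to 51.6 FPKM in control and 32.6 to 122 FPKM in exercise libraries, led by Sdc4 and Heyl. Of 18 fibre markers 17 had reads, with Tnnc2 at 0, led by Acta1 and Actn3. Their summed level was 41679.9 to 93935 FPKM in control and 16528 to 109182 FPKM in exercise libraries, so the fibre list exceeded the SC list in every library. The highest sum was in exercise 4, where FPKM are not on the scale of the other libraries. Actn3 had 48303 FPKM from 40286 reads there, and 23094 FPKM from 153308 reads in control 1. All 17 fibre markers with reads were tested by limma, and 5 were lower in exercise, 0 were higher and 12 did not pass the test. Over all genes tested, 26.8% were lower and 8.78% higher. Of the fibre markers 15 had fold changes below 0, with a median of -1.32 on the log2 scale. Over all genes tested, 2954 of 4328 were below 0 and the median was -1.42. Fibro-adipogenic markers (7 of 7 with reads, led by Gsn and Dcn) summed to 2578 to 3567 FPKM in control and 3595 to 9401 FPKM in exercise libraries. Endothelial markers (2 of 8, Kdr and Tek) summed to 0.0925 to 2994 FPKM in control and 4.42 to 26.2 FPKM in exercise libraries, with Pecam1 and Cdh5 at 0. Smooth muscle and pericyte markers (4 of 7, led by Myh11 and Acta2, with Tagln, Cnn1 and Rgs5 at 0) summed to 3.61 to 47.1 FPKM and 5.72 to 89.3 FPKM. Erythroid markers (4 of 5, led by Hbb-bs and Hbb-bt) reached 119 FPKM in control libraries and 1.56 FPKM in exercise libraries. All 9 immune markers were at 0. By limma, 2 of 7 tested fibro-adipogenic markers were higher in exercise and 0 lower, and 1 of 2 endothelial markers was higher and 1 lower. Of 3 smooth muscle and pericyte markers 1 was higher and 0 lower, and of 2 erythroid markers 0 were called. Of 6 SC markers 1 was higher and 1 lower. The part of these other cell types in the results below was not tested. In such bulk samples, fewer cells of a type and less RNA per cell cannot be told apart.

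The 3 most abundant members differed in pattern from library to library, and their promoters are shown for that reason. The sequences are from RefSeq on GRCm38.p6, written 5′ to 3′ on the strand of the gene, and cover the 250 bases before the annotated start, or 215 for Atp2a1, where the last 35 bases lie inside the gene's span in the files and were left out. RefSeq windows were found for 5 of the 10 members (Casq1, Casq2, Ryr1, Atp2a1 and Pvalb, which has 2 of them). Capitals mark CAGCTG, an E-box of the kind bound by muscle regulatory factors, and TATTTA, an A and T rich element near the start of some muscle genes.
Casq1 promoter (chr1:172219896-172220145, minus strand): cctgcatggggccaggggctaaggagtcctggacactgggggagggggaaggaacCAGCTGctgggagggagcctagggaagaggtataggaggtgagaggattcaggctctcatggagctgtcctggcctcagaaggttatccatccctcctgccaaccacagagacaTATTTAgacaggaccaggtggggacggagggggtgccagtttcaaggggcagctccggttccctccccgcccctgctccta
Atp2a1 promoter (chr7:126463109-126463323, minus strand): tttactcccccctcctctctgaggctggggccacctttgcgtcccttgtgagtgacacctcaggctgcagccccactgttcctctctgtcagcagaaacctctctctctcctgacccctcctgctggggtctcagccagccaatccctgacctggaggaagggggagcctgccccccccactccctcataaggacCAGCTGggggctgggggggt
Pvalb promoter (chr15:78206401-78206650, minus strand): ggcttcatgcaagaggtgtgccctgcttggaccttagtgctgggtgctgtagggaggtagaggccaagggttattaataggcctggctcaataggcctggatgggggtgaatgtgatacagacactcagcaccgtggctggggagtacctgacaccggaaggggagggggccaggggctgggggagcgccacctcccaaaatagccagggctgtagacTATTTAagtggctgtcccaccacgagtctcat
On both strands, CAGCTG stood in the windows of Casq1, at -195 from the start, and Atp2a1, at -55, and in 13% of all 32851 mouse promoter windows of 250 bases. TATTTA stood in those of Casq1 and Pvalb, at -81 and -32 from the start, and in 12.7% of all windows. The looser E-box CANNTG, which includes CAGCTG, was in 4 of the 6 member windows and in 66.2% of all. Casq1 held both capitalised motifs, while Atp2a1 and Pvalb shared neither with each other.

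The filter on low values (a mean over the 8 libraries of 1 FPKM or more) left 4328 genes, of which limma with Benjamini-Hochberg adjustment called 35.6% at an adjusted p under 0.05, with 26.8% lower and 8.78% higher in exercise. The median log2 fold change (exercise minus control, on the log2(FPKM + 1) scale) of all genes tested was -1.42, and differences relative to it are given below for the members. It was -0.44 after quantile normalization and -0.79 when a group without reads was set to 3 reads in each library. Of the 10 members 8 had reads, 6 passed the filter, 1 (Atp2a2) was lower in exercise and 0 were higher. The median log2 fold change of the 6 was -1.85, or -1.51 with Atp2a2 at 3 reads per exercise library, but Atp2a2 and Trdn passed the filter through their control values and Jph1, at 0.28 without the filter, did not pass it. In FPKM, 0 members had groups that did not overlap, against 31.6% of the genes tested. As shares of each library's reads, 2 did (Trdn and Atp2a1), against 30.9% of the genes tested.

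**Figure D1:**
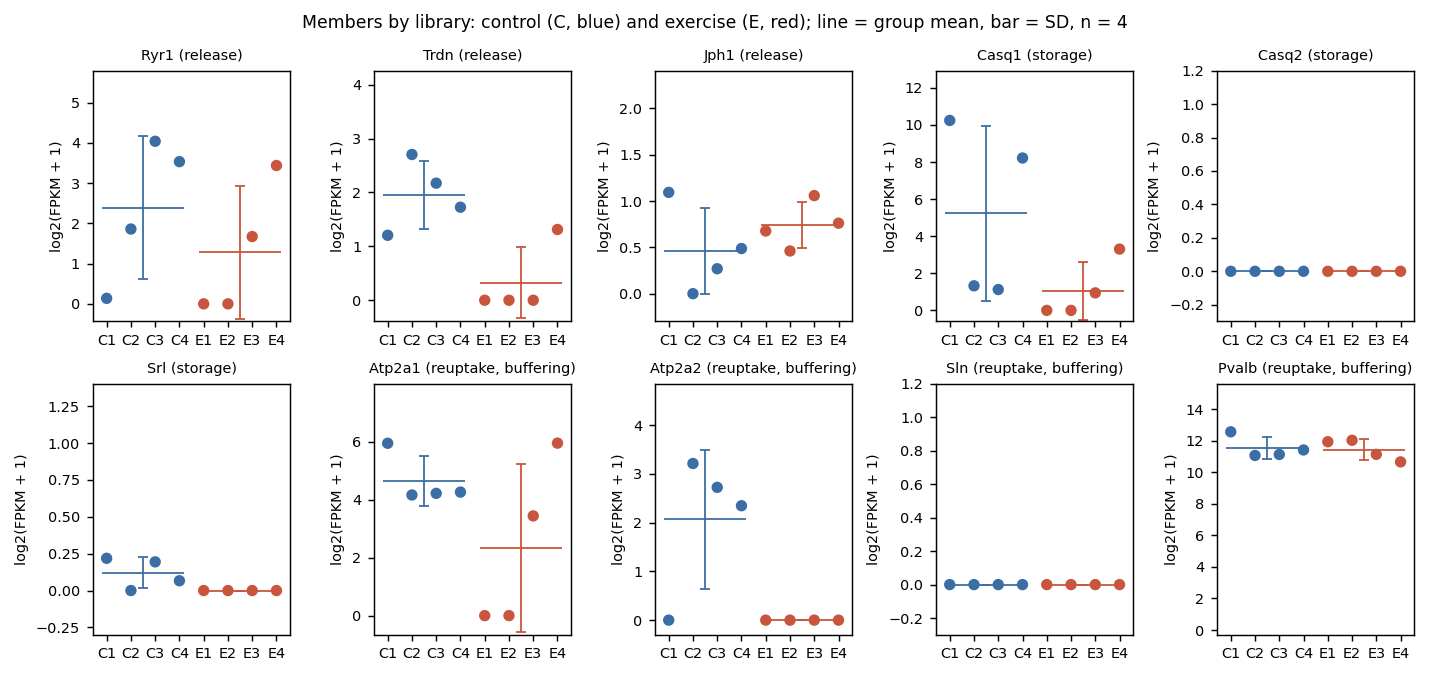
Levels of the 10 members as log2(FPKM + 1), with 1 panel per gene, a point for each of the 4 control (blue) and 4 exercise (red) libraries, a line for the group mean and a bar for its SD. Pvalb reached 1617 FPKM or more in every library, Casq1 was high in control 1 and 4 only (1212 and 297 FPKM), and Casq2 and Sln had no reads anywhere.

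Release was represented by a channel and its junction proteins. Ryr1 (chr7:29003344-29125179, minus strand, 109 exon blocks), the calcium release channel of skeletal muscle, had 0.0998, 2.63, 15.5 and 10.6 FPKM in control 1 to 4 and 0, 0, 2.19 and 9.85 FPKM in exercise 1 to 4. Control 1 was nearly as low as exercise 1 and 2, and exercise 4 was close to control 4 in FPKM, so the groups overlapped. In reads the latter pair was far apart, with 62 in exercise 4 and 922 in control 4, or 53.6 and 330.4 per 1000000 reads. The means were 7.20 ± 7.10 FPKM in control and 3.01 ± 4.68 FPKM in exercise (SD, n = 4 each). The log2 fold change was -1.12 (SE 1.09, 95% interval -3.54 to 1.31, limma adjusted p = 0.403), and the exact two-sided permutation p was 0.257. Against the shift of all genes the difference was 0.30. Scaled to read totals, the log2 fold change was -1.78 (limma adjusted p = 0.157, exact permutation p = 0.114), and after quantile normalization it was -0.35 (limma adjusted p = 0.796). It ran from -0.57 without control 3 to -1.87 without control 1. With array quality weights it was -3.55 and passed the test (limma adjusted p = 0.000183). These weights were estimated from the same values, with the nearly alike exercise 1 and 2 as separate samples, so that p is not read as stronger evidence.

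Triadin, encoded by Trdn (chr10:33080554-33476709, plus strand, 38 exon blocks), anchors calsequestrin to the release channel. Its levels were 1.31, 5.52, 3.51 and 2.31 FPKM in control 1 to 4, from 28, 158, 128 and 86 reads. In exercise 1 to 3 it had 0 reads, and in exercise 4 it had 4 reads, or 1.48 FPKM, where 3 reads are worth 1.11 FPKM. In FPKM, control libraries were higher apart from control 1, which lay just under exercise 4. Per 1000000 reads Trdn had 12.0 in control 1, the lowest of the control libraries, and 3.46 in exercise 4, so on that scale the groups did not overlap. The mean was 3.16 ± 1.81 FPKM in control and 0.371 ± 0.742 FPKM in exercise (SD, n = 4 each), a 5.83-fold difference with 3 reads in each exercise library without reads, or 13.9-fold without exercise 4. The log2 fold change of -1.62 (SE 0.58, 95% interval -2.91 to -0.34) had a limma adjusted p of 0.0513 and an exact permutation p of 0.0571, and it was -0.21 relative to the shift of all genes. It passed the test without control 1 (limma adjusted p = 0.0125) or without exercise 4 (0.0178), and with all libraries when scaled to read totals (log2 fold change -2.02, limma adjusted p = 0.0225, exact permutation p = 0.0286). It did not pass without any of the other 6 libraries (limma adjusted p 0.0794 to 0.141), with exercise 1 and 2 averaged (0.127), or after quantile normalization, where the log2 fold change was -0.35 (limma adjusted p = 0.655).

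Jph1 (chr1:16964560-17097889, minus strand, 7 exon blocks) encodes junctophilin 1, which ties the store membrane to the transverse tubule. It was the only member whose mean was higher in exercise. Its levels were 1.13, 0, 0.205 and 0.402 FPKM in control 1 to 4 and 0.598, 0.376, 1.08 and 0.694 FPKM in exercise 1 to 4, from 13, 0, 4 and 8 reads and 5, 3, 6 and 1 reads. The groups overlapped, with the highest and the lowest library both in control, and no exercise library exceeded 6 reads. The means of 0.435 ± 0.494 and 0.688 ± 0.295 FPKM (SD, n = 4 each) were under the filter, and the exact permutation p was 0.343.

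Casq1 was the storage gene with the widest spread. It encodes calsequestrin 1, the high-capacity calcium binding protein of fast fibres (chr1:172209894-172219868, minus strand, 11 exon blocks). It had 1212 FPKM in control 1 and 297 FPKM in control 4, from 5426 and 2310 reads, but 1.51 and 1.18 FPKM in control 2 and 3, from 9 reads each. In exercise 1 to 4 it had 0, 0, 0.925 and 8.89 FPKM, from 0, 0, 2 and 5 reads. Exercise 4 was thus above control 2 and 3, and the high control mean came from 2 of 4 libraries. The means were 378 ± 573 FPKM and 2.45 ± 4.31 FPKM (SD, n = 4 each). With 3 reads in each exercise library without reads, the ratio was 129, or 34.2 without control 1 and 404 without exercise 4. The log2 fold change of -4.17 (SE 2.02, 95% interval -8.68 to 0.35) had a limma adjusted p of 0.124 and an exact permutation p of 0.171, and it was -2.75 relative to the shift of all genes. It ran from -2.49 without control 1 to -5.53 without control 3.

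The other storage genes were scarce. Casq2, the cardiac and slow-fibre calsequestrin (chr3:102086415-102146514, plus strand), had 0 reads in all 8 libraries, where 3 reads would be 0.275 to 3.80 FPKM. Srl, which encodes the luminal glycoprotein sarcalumenin (chr16:4480216-4541816, minus strand), had 2, 0, 3 and 1 reads in control 1 to 4 and 0 in each exercise library, at most 0.164 FPKM. Both groups were at or under 3 reads, so no fold is given, and the exact permutation p was 0.143.

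**Figure D2:**
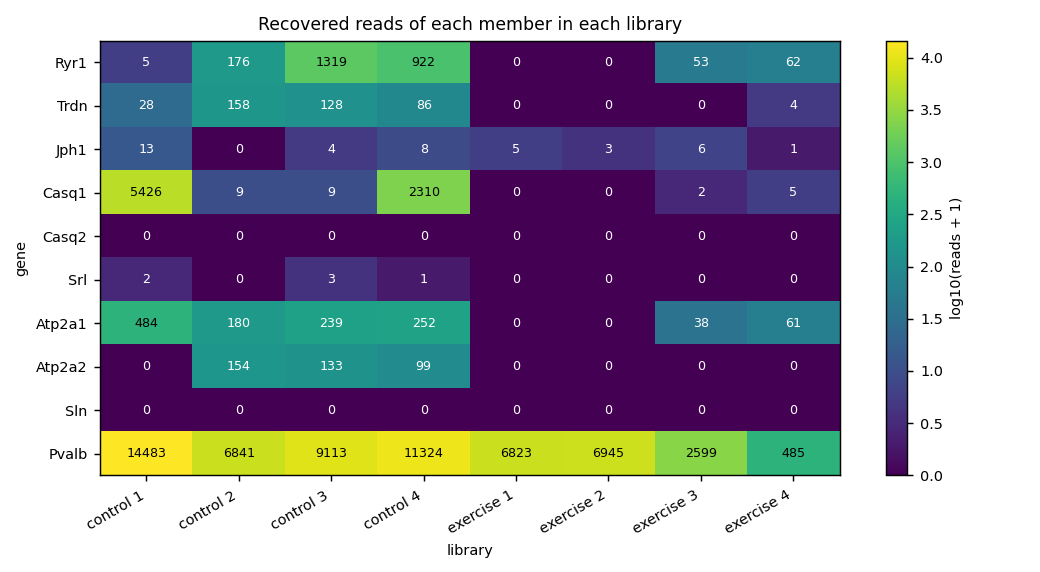
Number of reads behind each member's value (rows) in each of the 8 libraries (columns), with the colour showing log10(reads + 1). Exercise 1 and 2 had reads of Pvalb and Jph1 only, and Pvalb held at least 485 reads in each of the 8 libraries.

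Reuptake genes held the member that passed the test. Atp2a2 (chr5:122453513-122502225, minus strand, 21 exon blocks) encodes SERCA2, the calcium pump of slow fibres, heart and most non-muscle cells. Its levels were 0, 8.27, 5.60 and 4.09 FPKM in control 1 to 4, from 0, 154, 133 and 99 reads, and it had 0 reads in every exercise library. Control 1 equalled the exercise libraries and the remaining control libraries were above them. The control mean was 4.49 ± 3.46 FPKM (SD, n = 4), at least 6.50-fold above the exercise group if each exercise library is allowed 3 reads, a mean of 0.690 FPKM. This bound was 4.68 to 12.8 as each library was left out, with the lowest value without control 2 and the highest without exercise 4. The log2 fold change was -2.07 (SE 0.71, 95% interval -3.65 to -0.49, limma adjusted p = 0.0460), or -0.66 relative to the shift of all genes, and the exact permutation p was 0.143. Leaving out control 1 gave -2.76 with a limma adjusted p of 0.000401, while leaving out any other library ended the call (adjusted p 0.0724 to 0.119). The call was also lost with exercise 1 and 2 averaged as 1 sample, with no filter, no trend or the replicate number as a block, each at a log2 fold change of -2.07. It was lost with voom at -4.29 (limma adjusted p = 0.0864) and after quantile normalization at -1.13 (limma adjusted p = 0.156). Gm43360 lies on the same strand inside the gene, outside its exons, and had 0, 21, 14 and 8 reads in control 1 to 4 and 0 in exercise libraries.

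Atp2a1 (chr7:126445858-126463108, minus strand, 23 exon blocks) encodes SERCA1, the pump of fast fibres. It had 60.7, 16.9, 17.6 and 18.2 FPKM in control 1 to 4 and 0, 0, 9.86 and 60.9 FPKM in exercise 1 to 4. The lowest and the highest libraries were both in exercise, and control 2 to 4 were within 2 FPKM of each other. The means of 28.3 ± 21.6 and 17.7 ± 29.2 FPKM (SD, n = 4 each) differed by less than the spread between libraries, with a log2 fold change of -2.30 (SE 1.32, 95% interval -5.25 to 0.65, limma adjusted p = 0.170) and an exact permutation p of 0.229. Relative to the shift of all genes it was -0.88. Without exercise 4 the log2 fold change was -3.50 and passed the test (limma adjusted p = 0.0303). Whether the groups overlapped depended on the scaling. As reads per 1000000 reads, Atp2a1 had 207, 67.5, 79.3 and 90.3 in control 1 to 4 and 0, 0, 31.7 and 52.8 in exercise 1 to 4, so every exercise library was below every control library. The Wilson 95% intervals of the nearest pair, 58.4 to 78.2 in control 2 and 41.1 to 67.8 in exercise 4, overlapped, and they cover only counting error, because reads of amplified RNA do not each stand for a separate molecule. Scaled to read totals, the log2 fold change was -3.04 (limma adjusted p = 0.0477, exact permutation p = 0.0286, the smallest that 4 against 4 libraries allow), with the nearly alike exercise 1 and 2 as separate samples. On the deposited scale the value of -2.30 became -1.52 with these averaged (limma adjusted p = 0.367, exact permutation p = 0.343), and after quantile normalization -1.57 (limma adjusted p = 0.331). Rabep2, on the opposite strand, shares 763 exon bases with Atp2a1 and had no reads.

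Sln (chr9:53850164-53854560, plus strand) encodes sarcolipin, a small inhibitor of the SERCA pumps. It had 0 reads in all 8 libraries, where 3 reads would be 0.571 to 7.90 FPKM.

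Pvalb was the most abundant member in every library. It encodes parvalbumin, the soluble calcium buffer of fast fibres (chr15:78191114-78206400, minus strand, 5 exon blocks). Its levels were 6065, 2146, 2243 and 2730 FPKM in control 1 to 4 and 3920, 4181, 2252 and 1617 FPKM in exercise 1 to 4. Control 1 was highest and exercise 4 lowest, with exercise 1 and 2 above the other control libraries. The means were 3296 ± 1864 and 2992 ± 1254 FPKM (SD, n = 4 each), and the log2 fold change was -0.10 (SE 0.51, 95% interval -1.25 to 1.04, limma adjusted p = 0.873, exact permutation p = 0.914). Relative to the shift of all genes it was 1.31. The small mean difference changed sign in some settings, being 0.24 without control 1 and 0.16 without exercise 4. With array quality weights it was 0.76 and past the threshold (limma adjusted p = 0.0159), again with the nearly alike exercise 1 and 2 as separate samples. As reads per 1000000 reads, exercise 1 and 2 were the highest libraries, at 6447 and 6864, and exercise 4 the lowest, at 420, with 6189, 2567, 3024 and 4058 in control 1 to 4 and 2165 in exercise 3.

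**Figure D3:**
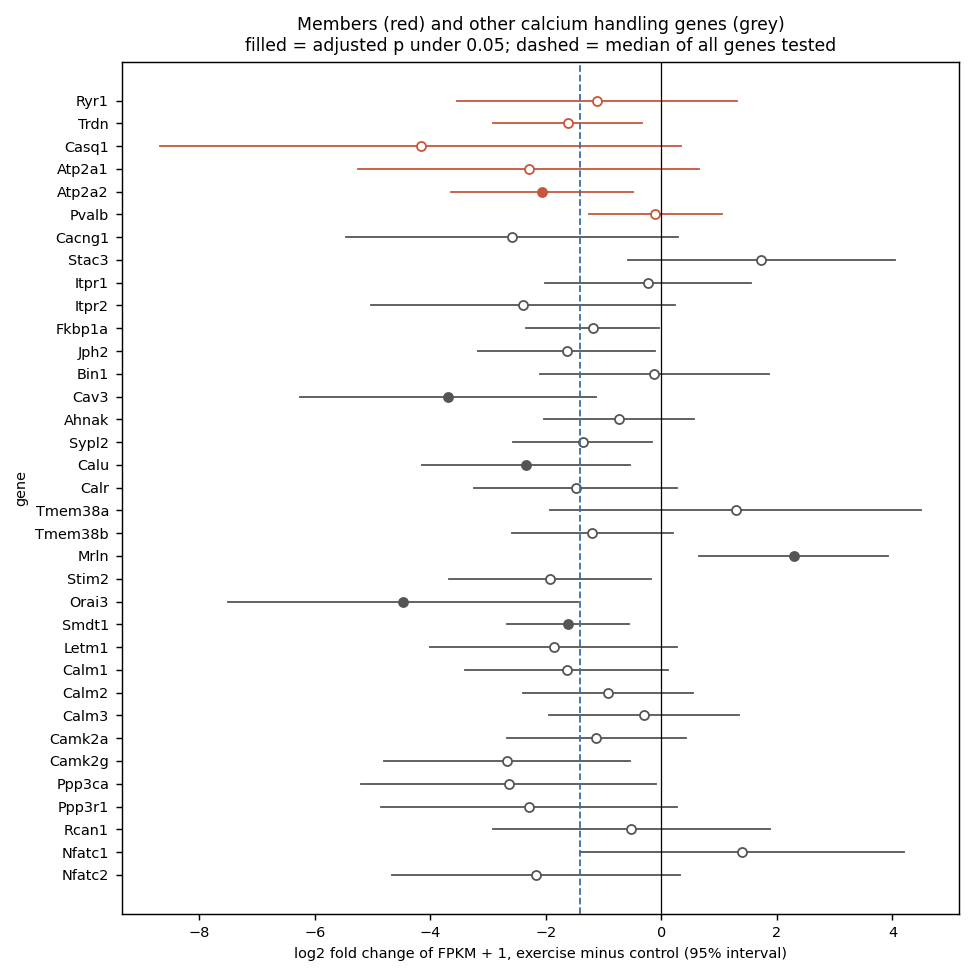
Log2 fold change (exercise minus control, log2(FPKM + 1) scale) with its 95% interval for the 6 tested members (red) and the 29 tested genes of the calcium handling list (grey), with filled points at an adjusted p under 0.05 and a dashed line at the median of all genes tested, -1.42. Among the members only the intervals of Trdn and Atp2a2 lie below 0, and those of all members but Pvalb include the median of all genes.

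Exercise 1 and 2 held almost no member transcript other than Pvalb. Pvalb made up 82.6%, 98.4%, 98.1% and 89.1% of the members' summed FPKM in control 1 to 4 and 99.98%, 99.99%, 99.4% and 95.2% in exercise 1 to 4. Without it, 5958, 677, 1835 and 3678 member reads remained in control 1 to 4, and 5, 3, 99 and 133 in exercise 1 to 4. The number of members with reads was 7, 6, 8 and 8 in control and 2, 2, 5 and 6 in exercise libraries. Exercise 3 and 4 held reads of more members than exercise 1 and 2, but fewer member reads than any control library.

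Ratios within a library do not depend on how libraries are scaled. Pvalb relative to Mylpf, the fast regulatory light chain of myosin, was 0.986, 0.513, 0.423 and 0.585 in control 1 to 4 and 1.17, 1.16, 0.584 and 0.152 in exercise 1 to 4, so exercise libraries held both the highest and the lowest values. Relative to Acta1, the actin of skeletal muscle, it was 0.196, 0.113, 0.139 and 0.158 in control and 0.387, 0.391, 0.239 and 0.0617 in exercise libraries. Exercise 1 to 3 lay above every control library on that ratio and exercise 4 below. The ratio of Pvalb to Atp2a1 was 99.9 to 150 in control libraries, 228 in exercise 3 and 26.6 in exercise 4, and could not be formed in exercise 1 and 2.

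**Figure D4:**
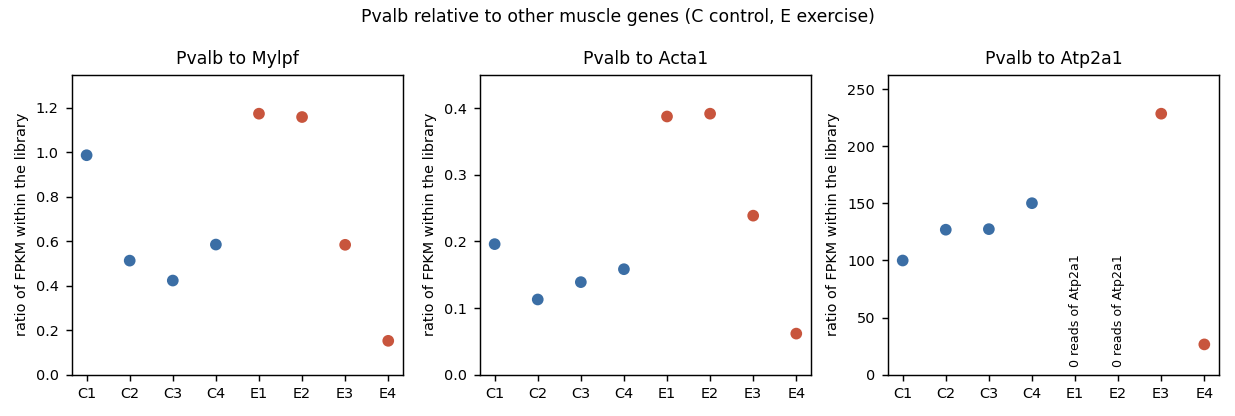
FPKM of Pvalb divided by that of Mylpf, Acta1 and Atp2a1 in the same library, for the 4 control and 4 exercise libraries. Exercise 1 and 2 are the highest for Mylpf and Acta1, exercise 4 is the lowest in all 3, and exercise 1 and 2 have 0 reads of Atp2a1.

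The fast and slow forms of the pump and of calsequestrin were set side by side. Where both pumps were above 3 reads, in control 2 to 4, the ratio of Atp2a1 to Atp2a2 was 2.04, 3.14 and 4.45. In control 1, exercise 3 and exercise 4 only the fast form had reads. The ratio of Casq1 to Atp2a1 was 19.98, 0.0891, 0.0671 and 16.3 in control 1 to 4 and 0.146 in exercise 4, so Casq1 was above Atp2a1 in control 1 and 4 and far below it in control 2 and 3. The ratio of Ryr1 to Atp2a1 was 0.00165, 0.156, 0.879 and 0.583 in control 1 to 4 and 0.222 and 0.162 in exercise 3 and 4, lowest in control 1, where that of Casq1 was highest. Fast-fibre markers (7 of 8 with reads, led by Actn3 and Mylpf) summed to 12997 to 41663 FPKM in control and 5761 to 77259.9 FPKM in exercise libraries. The highest sum was that of exercise 4, whose FPKM of all genes summed to 2.49e+06. Slow-fibre markers (3 of 8 with reads) reached 1.19 FPKM in control libraries and 337 FPKM in exercise libraries. The exercise value was Tnnc1 alone, with 90 and 101 reads in exercise 3 and 4 and 0 reads elsewhere (limma adjusted p = 0.123), and Tnnt1 and Myl2 had reads in control libraries only. Myh7, Myl3, Tnni1, Myh7b and Myoz2 were at 0 throughout.

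The closest patterns over the 8 libraries were sought for the members with a mean of at least 10 FPKM, among 4322 genes, by the mean absolute difference of centred log2(FPKM + 1) values. For Casq1 these were 1810030O07Rik, at 0.63, and Msrb1, at 0.64. Msrb1, a methionine sulfoxide reductase, had 1649, 1.56, 1.63 and 331 FPKM in control 1 to 4 and 0, 0, 11.5 and 19.3 FPKM in exercise 1 to 4, high in the same control libraries as Casq1. For Atp2a1 they were Maf1, at 0.39, and Cox7a2, at 0.40, both highest in exercise 4 and lowest in exercise 1 and 2. For Pvalb they were Slc25a4, the adenine nucleotide carrier of muscle mitochondria, at 0.22, and Hsp90aa1, at 0.24. Slc25a4 had 187, 114, 102 and 102 FPKM in control 1 to 4 and 137, 134, 83.2 and 47.2 FPKM in exercise 1 to 4. These likenesses are descriptions over libraries that differ in depth and in summed FPKM.

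Other genes of calcium handling were read from a list of 75, of which 72 were in the table and 49 had reads. Of these, 26 (53.1%) had reads in control libraries only, beside 52.4% of all genes with reads. In exercise libraries only, 0 had reads, beside 622 of the 9029 genes with reads. Among the 29 that passed the filter, 4 were lower in exercise, 1 was higher and 24 did not pass the test, so 17.2% were called, beside 35.6% of all genes tested (26.8% lower, 8.78% higher). Their median log2 fold change was -1.48, beside -1.42 over all genes tested, and with groups without reads set to 3 reads it was -1.12, beside -0.79. Calls were 1 of 5 for junction proteins, 1 of 4 for store proteins, 1 of 1 for pump regulators, 1 of 2 for plasma membrane transport, 1 of 2 for mitochondrial uptake and 0 of 10 for calcium sensors and effectors. Of the genes called, Cav3, Orai3 and Smdt1 had 0 exercise reads and passed the filter through their control values. Mrln passed it mainly through its exercise values. With no filter the list held 1 lower and 0 higher calls.

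Cav3, the caveolin of muscle, had 119, 1.13, 3.54 and 22.8 FPKM in control 1 to 4 and 0 in each exercise library, at least 10.1-fold lower with exercise libraries at 3 reads (log2 fold change -3.69, SE 1.15, limma adjusted p = 0.0363). This bound was 2.52 without control 1 and 19.98 without exercise 4. The gene was highest in control 1 and 4, as Casq1 was. Orai3, a channel for store-operated calcium entry, had 0, 22.1, 124 and 82.5 FPKM in control and 0 in exercise, at least 29.2-fold lower (log2 fold change -4.47, SE 1.35, limma adjusted p = 0.0338). This bound was 17.8 without control 3 and 57.5 without exercise 4. The gene had 0 reads in control 1, as Atp2a2 had. Calu, encoding calumenin of the secretory pathway, had 5.70, 29.6, 19.0 and 10.8 FPKM in control and 5.26, 2.69, 2.13 and 0 FPKM in exercise (log2 fold change -2.34, SE 0.81, limma adjusted p = 0.0472). Smdt1, a subunit of the mitochondrial calcium uniporter, had 12, 5, 4 and 9 reads in control and 0 in exercise libraries (log2 fold change -1.62, SE 0.47, limma adjusted p = 0.0315), but 3 reads in each exercise library would average 3.90 FPKM, above the control mean of 2.36 FPKM. That floor was 9.67 FPKM in exercise 4 and 1.67 to 2.51 FPKM in exercise 1 to 3, so no fold is given. Mrln, which encodes myoregulin, a SERCA inhibitor of skeletal muscle, was the gene that was higher. It had 3.33, 0.553, 0.651 and 1.70 FPKM in control 1 to 4 and 9.63, 3.72, 13.0 and 23.5 FPKM in exercise 1 to 4, from 9, 2, 3 and 8 reads and 19, 7, 17 and 8 reads. The means were 1.56 and 12.5 FPKM (log2 fold change 2.29, SE 0.73, limma adjusted p = 0.0385). Every exercise library was above every control library (groups did not overlap for 31.6% of genes tested), but 3 reads in exercise 4 would be 8.82 FPKM. Each of these 5 calls was lost with most single libraries left out. Without control 4, exercise 1, exercise 2 or exercise 3 the list held 0 calls by limma, and the call of Mrln held only without control 1 or exercise 4.

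Voltage sensor and release channel genes gave no call. All 5 voltage sensor genes had reads, 4 of them in control only, and 2 passed the filter. Cacng1, a subunit of the sensor, had 62.8, 0, 0 and 18.9 FPKM in control and 0 in exercise libraries (limma adjusted p = 0.130), and Stac3, an adaptor of the sensor, had 0.514, 0, 0 and 0 FPKM in control and 0, 0, 4.97 and 30.0 FPKM in exercise 1 to 4 (limma adjusted p = 0.183). Of 9 genes of the release channel and its partners, 4 had reads and 3 passed the filter. Fkbp1a, which binds and steadies the release channel, had 4.86, 1.61, 1.39 and 1.43 FPKM in control and 0.465, 0.812, 0.234 and 0 FPKM in exercise, with a limma adjusted p of 0.0912. The groups did not overlap as deposited (beside 31.6% of genes tested), but 3 reads in exercise 4 would be 2.70 FPKM, above control 2 to 4. Itpr1 had 8.92, 0.0535, 0.0280 and 1.75 FPKM in control and 1.47, 1.95, 1.13 and 0 FPKM in exercise (limma adjusted p = 0.819). Itpr2 had reads in control 3 and 4 only, at 33.6 and 20.7 FPKM (limma adjusted p = 0.128). Both are inositol trisphosphate receptors, the release channels of many non-muscle cells. Tmem38a, a potassium channel of the store picked after its values were seen, had 227, 459, 298 and 228 FPKM in control and 101, 90.1, 2381 and 11310 FPKM in exercise 1 to 4 (limma adjusted p = 0.467), with exercise 1 and 2 below and exercise 3 and 4 above every control library.

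**Figure D5:**
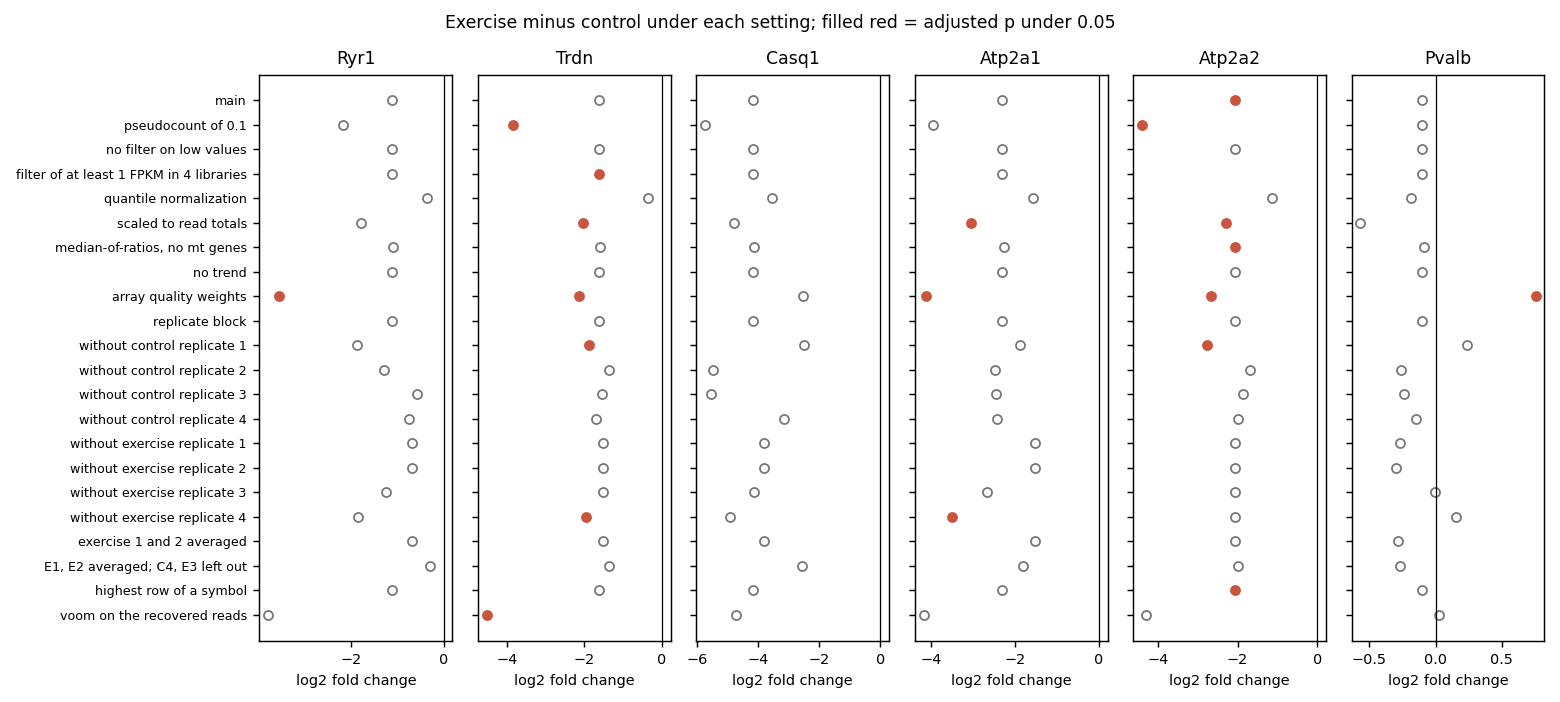
Log2 fold change (exercise minus control) of the 6 tested members in the reported fit and under 21 other settings (rows, with a separate scale for each gene), with filled points for an adjusted p under 0.05. Atp2a2 is called in the reported fit and under 6 of the 20 other settings in which it was tested, Trdn under 7 of 21 and Casq1 under 0.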

How the data were processed

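SCs of 4 control and 4 exercise samples were sequenced as 150-base paired reads after whole-transcriptome amplification. Per the labels and the methods, the authors used the mm10 build, Bowtie 0.12.9, Cufflinks 2.1.1 and HTSeq, and tested genes with DESeq2. The authors deposited FPKM values, 1 column per library. Multiplied by gene length, 100% of the values in each library were whole multiples of 1 step (tolerance 0.001), which gave the reads. Of 52636 identifiers, 52403 were in GENCODE M21, and all 10 members had the same coordinates there. Rows sharing a symbol were summed.

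Because the unit is FPKM, limma 3.58.1 (R 4.3.3) was used in place of a count test, with lmFit and a trended eBayes on log2(FPKM + 1) of all genes averaging 1 FPKM or more, and p-values of the 4328 genes were adjusted by Benjamini-Hochberg. Single genes were also compared by exact two-sided permutation of mean log2 values over 70 assignments, which give no p under 0.0286. A count of 0 was taken to allow 3 reads. Tables and figures were made in Python 3.11.15 with numpy 2.4.6, pandas 2.3.3 and matplotlib 3.10.9.

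The members and all lists were chosen with earlier results of these data known. Named genes were the 10 members, list genes with an adjusted p under 0.05, and tested genes of the voltage sensor and release channel roles. They also included the 2 genes nearest in pattern to each member with a mean of 10 FPKM or more. From marker lists came the 2 highest genes and the absent ones. Tmem38a was added after its values were seen, Cd34 as a marker of the sort, and Myl2 as a slow-fibre marker with reads. Rabep2 and Gm43360 were named because they overlap members. Replicate numbers did not pair samples, since deviations of same-numbered libraries correlated at -0.0169 to 0.0393. The 21 other settings changed the pseudocount (0.1), the filter, the scaling, the trend, the library weights, the block, the merging of rows, the libraries included, or used voom on the reads. The result of 1 marker list is not reported here.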

Additional observations from a re-analysis of the deposited data

Results flagged for a closer look

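In groups of 4 libraries, the extreme library was set apart where its gap to the nearest other, as a share of the group's range, exceeded Dixon's 95% critical value. Of 14 groups with values 2 were. Chance gives about 1 in 20, or 0.7 here, only for values without ties. Several groups held libraries tied at 0, so the count is not judged against that rate. Trdn was highest in exercise 4, at 1.31 on the log2(FPKM + 1) scale, from 4 reads. The other exercise libraries had 0 reads, so the gap was the whole range (1) whatever the level in exercise 4. Atp2a1 was highest in control 1, at 5.95 on that scale, with a gap of 0.944 of the range, while control 2 to 4 lay at 16.9 to 18.2 FPKM against 60.7 FPKM.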

How the results depend on the processing

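Of 146 single-gene values recomputed under 21 settings, 115 kept their direction and side of the threshold, 14 lost a call, 11 gained one and 6 reversed. The number of members called (1, Atp2a2) was 2 with a pseudocount of 0.1, 3 scaled to read totals, 5 with array quality weights, 0 to 2 without 1 library, and 0 with no filter, quantile normalization, no trend, the replicate block, or exercise 1 and 2 averaged. At an unadjusted limma p under 0.05, 2 members passed with no filter, 0 with quantile normalization, 2 with no trend, 2 with the block and 1 with the averaged fit. The stricter filter did not test Atp2a2 and called Trdn, as voom did. Calls over all genes (380 higher, 1161 lower) were 234 and 606 with no filter, 815 and 2163 with weights, 178 and 418 with exercise 1 and 2 averaged, and 164 to 568 and 360 to 1503 without 1 library (moved by over 1.5 times in at least 1 direction by leaving out any library but control 1 or exercise 4), and lower calls were 375, with 566 higher, after quantile normalization. With the replicate block they were 270 and 789. The calcium list (4 lower, 1 higher) gave 1 lower with no filter and with quantile normalization, 14 lower and 2 higher with weights, 2 lower and 0 higher with the block and with voom, 0 higher with no filter, and 0 to 5 lower and 0 to 1 higher without 1 library. With exercise 1 and 2 averaged it gave 0 and 0. When control 4 and exercise 3 were also left out, limma called 0 members, 0 list genes and 0 genes in either direction, with 469 genes at an unadjusted p under 0.05, among them 0 members and 0 list genes. Pvalb reversed to 0.76 with weights (adjusted p = 0.0159), 0.023 with voom, 0.24 without control 1 and 0.16 without exercise 4, within -0.30 to 0.24 without 1 library. Tmem38a reversed to -1.48 with weights and to -0.049 without exercise 4, the lowest of -0.049 to 2.27 without 1 library. The weighted fit took the nearly alike exercise 1 and 2 as separate samples, and the cause of these changes was not tested. The adjusted p of Atp2a2 ranged from 6.43e-06 to 0.478, that of Trdn from 2.31e-05 to 0.655 and that of Casq1 from 0.0626 to 0.543. Deviations of same-numbered libraries did not correlate, so the replicate block is a comparison only. The value of a read differs by library through both its depth and the library size in the FPKM, so 3 reads of Casq1 are 0.920 FPKM in exercise 1 and 5.34 FPKM in exercise 4, and a difference below such floors was not detectable.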
